A study of Mus musculus with 6 samples.

Results

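The non-collagen extracellular matrix genes described here are a list of 50 genes for the proteoglycans, glycoproteins, elastic fibre proteins, laminins and matrix-modifying enzymes that surround the epithelium of the early pancreas. Of these, 49 had a named row among the 24010 genes measured, found by Entrez ID and symbol, and the remaining 1 was not analysed here. RNA was profiled on Affymetrix whole-transcript arrays in mouse dorsal pancreatic buds taken at E11.5 and cultured for 24 h. The 3 groups were buds exposed to I-BET151 at 500 nM, to JQ1 at 100 nM, or to 0.1% DMSO alone (CTRL), with 2 arrays each and a pool of 10 buds per array. Both compounds are inhibitors of the BET bromodomain proteins, which bind acetylated histones and help to release RNA polymerase into elongation. No strain is named. Nothing in the labels tells whether replicate pools had different litters or culture days, and the spread behind each p-value may therefore be technical.

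The matrix of a young organ has an interstitial part, laid down mostly by mesenchymal cells, and a basement membrane, a thin sheet of laminin, collagen IV, nidogen and perlecan on which epithelium and vessels rest. Small leucine-rich proteoglycans (SLRPs) such as decorin bind collagen fibrils and growth factors, and lysyl oxidases cross-link collagen and elastin. In the pancreatic bud, mesenchyme and its matrix support growth and branching of the epithelium, and laminin signals through integrins on progenitor cells.

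The values are the authors' RMA-normalized intensities, not logged, given as whole numbers from 5 upward. The arrays had medians of 54 to 57 and lower quartiles of 17 to 18. On the log2 scale, replicate arrays correlated at 0.995 to 0.996 over all genes and inhibitor arrays with CTRL arrays at 0.990 to 0.993. A gene was called, and is said to have risen or fallen, at an adjusted p under 0.05 in a limma fit to all 6 arrays. Log2 changes are given ± SE from that fit with n = 2 arrays per group, and folds are 2 to the power of the log2 change. Because each probe set has its own brightness, an intensity is set only against the same gene on other arrays. Each sample is a whole bud, so fewer cells of a type and less RNA per cell cannot be told apart.

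A share of the matrix genes fell under each inhibitor. Under I-BET151, 10 of 49 genes fell and none rose by limma, whereas 0.87% of all genes measured fell and 0.262% rose (1.13% in either direction). At an unadjusted p under 0.05, 22 of the 49 were lower and 7 higher, against 10% and 8.84% of all genes. JQ1 gave 16 falls and 1 rise among the 49, against 2.67% of all genes falling and 1.13% rising (3.8% in either direction). At an unadjusted p under 0.05, 24 were lower and 7 higher under JQ1, against 11.2% and 10.4% of all genes. The 10 genes that fell under I-BET151 all fell under JQ1 too, although both comparisons use the same CTRL arrays. They were Postn, Tnc, Dcn, Bgn, Fmod, Hapln1, Mfap4, Lox, Timp1 and Adamts1. Sparcl1, Thbs1, Thbs2, Ogn, Loxl1 and Mmp2 fell and Agrn rose under JQ1 alone, and for none of these 7 was the difference between the inhibitors called. The median log2 change of the 49 genes was -0.14 under I-BET151 and -0.20 under JQ1, against 0.003 and 0.016 over all genes measured.

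The adjusted calls rest on having all 6 arrays. Without any 1 array, whether I-BET151 1, I-BET151 2, JQ1 1, JQ1 2, CTRL 1 or CTRL 2, limma called none of the 49 genes in either comparison with CTRL, and 23 to 29 had an unadjusted p under 0.05 (18.9% of all genes for I-BET151 and 21.6% for JQ1 with every array). When the genes below the median mean intensity were also left out, which kept 43 of the 49, these 6 fits called 10 to 18 genes under I-BET151 and 16 to 21 under JQ1. Of the 12005 genes then tested in all, they called 3.29% to 8.82% under I-BET151 and 8.06% to 18.5% under JQ1.

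**Figure D1:**
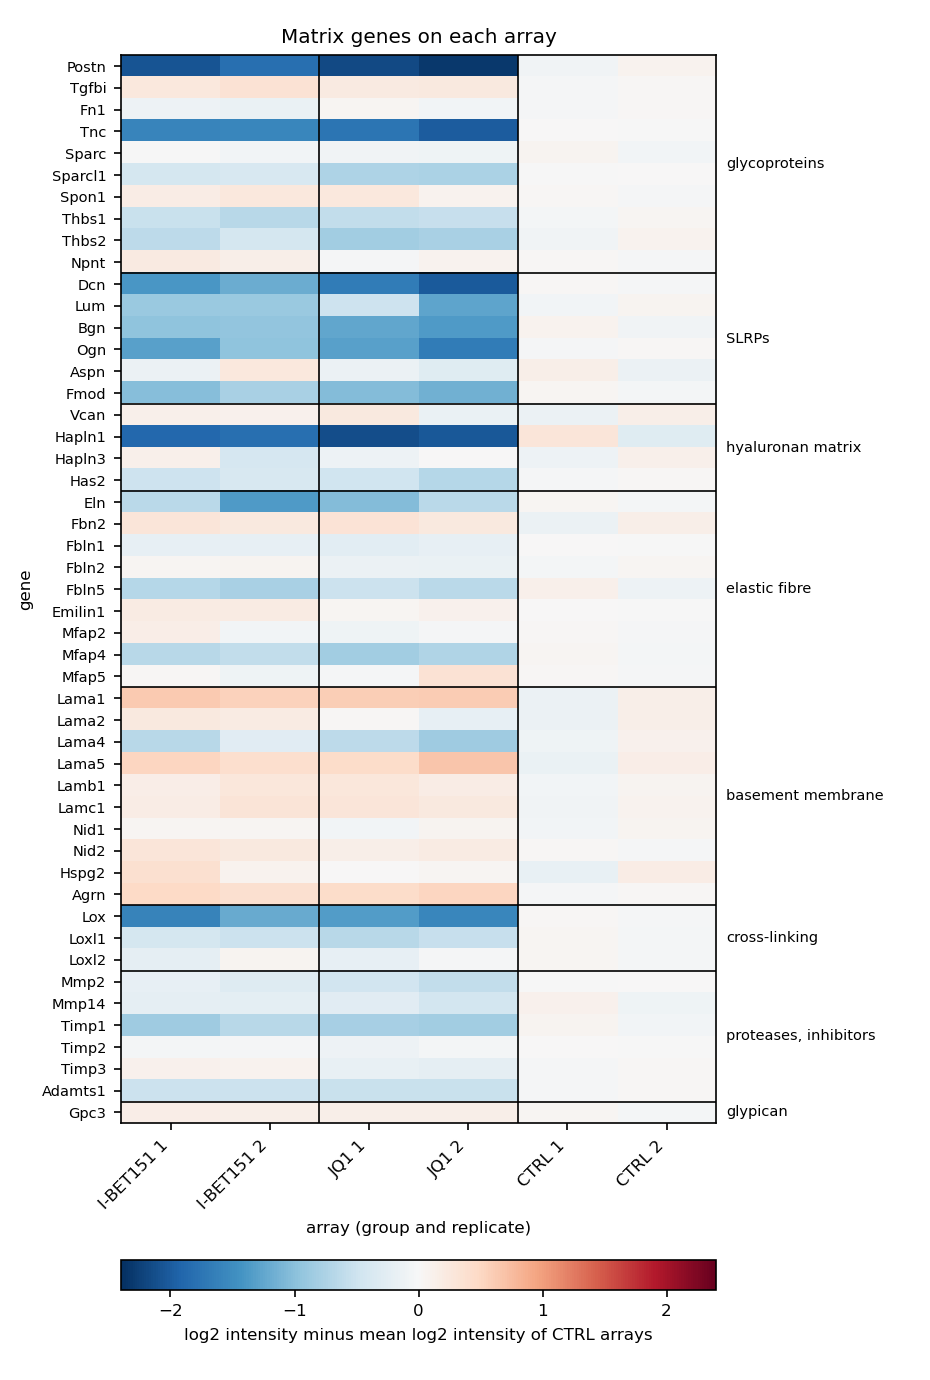
The log2 intensity of each of the 49 matrix genes (rows, by role) on each array (columns: 2 I-BET151, 2 JQ1 and 2 CTRL) is shown as its difference from the mean of the CTRL arrays, blue for lower and red for higher. The darkest blue rows, among them Postn, Tnc, Dcn, Hapln1 and Lox, are blue on all 4 inhibitor arrays, whereas most laminin rows are pale or red.

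Promoter sequences are shown for 3 contrasts that recur in the results: Postn against Tgfbi, paralogues that encode fasciclin-domain proteins and of which only Postn was called, Hapln1 against its chromosomal neighbour Vcan, and Adamts1, which fell, against Agrn, which rose under JQ1. Each window runs from 250 bases before to 50 bases after a transcription start listed by RefSeq in the build GRCm38.p6, 5′ to 3′ on the gene's strand. Capitals mark matches on either strand to the TATA box, searched as the letters TATAAA, and to the GC box, searched as GGGCGG. Overlapping GC boxes run together. Postn and Agrn each have 2 listed starts, and the 1 shown is, for Postn, the start with a TATA box and, for Agrn, the start listed first.
Postn, chr3:54360857-54361156, plus strand: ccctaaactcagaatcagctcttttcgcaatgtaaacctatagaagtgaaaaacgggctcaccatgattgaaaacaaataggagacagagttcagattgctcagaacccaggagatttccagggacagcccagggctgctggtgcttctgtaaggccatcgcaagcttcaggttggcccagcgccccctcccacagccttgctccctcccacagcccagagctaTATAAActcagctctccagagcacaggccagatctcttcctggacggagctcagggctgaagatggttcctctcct
Tgfbi, chr13:56609336-56609635, plus strand: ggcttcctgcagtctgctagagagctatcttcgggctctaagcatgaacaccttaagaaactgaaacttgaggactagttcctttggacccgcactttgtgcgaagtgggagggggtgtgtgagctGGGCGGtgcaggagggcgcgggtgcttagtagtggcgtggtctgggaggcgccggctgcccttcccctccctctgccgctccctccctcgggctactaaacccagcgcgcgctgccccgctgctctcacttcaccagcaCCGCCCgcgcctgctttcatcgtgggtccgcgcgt
Hapln1, chr13:89540386-89540685, plus strand: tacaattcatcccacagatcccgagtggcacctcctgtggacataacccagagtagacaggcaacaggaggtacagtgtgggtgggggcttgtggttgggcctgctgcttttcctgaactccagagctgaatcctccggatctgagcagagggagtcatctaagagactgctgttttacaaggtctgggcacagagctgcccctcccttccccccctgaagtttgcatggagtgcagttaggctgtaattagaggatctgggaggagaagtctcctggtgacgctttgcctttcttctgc
Vcan, chr13:89742463-89742762, minus strand: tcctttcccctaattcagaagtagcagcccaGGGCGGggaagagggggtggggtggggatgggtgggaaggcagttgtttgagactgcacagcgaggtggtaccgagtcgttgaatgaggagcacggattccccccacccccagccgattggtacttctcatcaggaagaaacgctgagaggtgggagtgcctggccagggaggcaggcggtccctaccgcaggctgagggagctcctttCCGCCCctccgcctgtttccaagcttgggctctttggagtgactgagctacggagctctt
Adamts1, chr16:85803064-85803363, minus strand: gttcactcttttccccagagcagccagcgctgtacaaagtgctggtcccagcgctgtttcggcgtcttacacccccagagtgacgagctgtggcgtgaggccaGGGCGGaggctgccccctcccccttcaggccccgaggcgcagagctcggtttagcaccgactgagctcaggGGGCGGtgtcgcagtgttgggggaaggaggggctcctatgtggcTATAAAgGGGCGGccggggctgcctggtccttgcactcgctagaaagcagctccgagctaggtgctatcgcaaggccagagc
Agrn, chr4:156197439-156197738, minus strand: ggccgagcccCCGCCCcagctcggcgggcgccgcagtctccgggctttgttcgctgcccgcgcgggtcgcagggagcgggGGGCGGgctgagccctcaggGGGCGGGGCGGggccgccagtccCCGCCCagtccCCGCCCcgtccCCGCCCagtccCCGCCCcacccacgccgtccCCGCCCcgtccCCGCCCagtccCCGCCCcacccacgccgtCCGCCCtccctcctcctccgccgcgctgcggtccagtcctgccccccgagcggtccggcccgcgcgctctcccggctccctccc
The TATA box lies 26 bases before the start in Postn and 32 bases before it in Adamts1. Agrn has 12 GC boxes and 83.3% G and C, and the Hapln1 window holds neither motif.

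RefSeq windows were found for 30 of the 49 genes. The shares below count windows, not genes. Of the 16 genes that fell under either inhibitor, 9 had a window, and 6 of their 11 windows held a TATA box, which is 54.5%. Among the other matrix genes, 2 of 26 windows of 21 genes did (7.7%), and the share over all 32851 windows was 13.6%. GC boxes were in 5 of the 11 windows (45.5%) and 18 of the 26 (69.2%), against 35.7% of all windows. The median G and C content was 53.0% for windows of genes that fell, 63.5% for those of the other matrix genes and 52.7% for all windows. Windows of the same gene can overlap and share their letters. The letters TGANTCA (AP-1) were in none of the members' 37 windows, against 7.8% of all windows, CATTCC (TEAD) was in 18.2%, 7.7% and 14.7% of the same 3 sets, and CACGTG (E-box) in 0 of 11, in 7.7% and in 7.2%. These are descriptions of short windows on both strands and were not tested.

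Among 10 interstitial glycoproteins, Postn and Tnc fell under both inhibitors. Postn encodes periostin, a collagen-binding protein of connective tissue. It measured 124 and 148 on the I-BET151 arrays and 115 and 104 on the JQ1 arrays, against 489 and 550 on the CTRL arrays. All 4 inhibitor arrays lay far below both CTRL arrays, 3.83-fold lower with I-BET151 (log2 change -1.94 ± 0.12, adjusted p = 0.0306) and 4.74-fold lower under JQ1 (-2.25 ± 0.12, adjusted p = 0.0112). Tnc, the gene of the anti-adhesive glycoprotein tenascin-C, measured 116 and 118 with I-BET151 and 104 and 87 with JQ1, against 352 and 346 in CTRL buds. The replicates of Tnc were close in each group, and the change was -1.58 ± 0.10 (adjusted p = 0.0306) and -1.88 ± 0.10 (adjusted p = 0.0112). Tgfbi, the paralogue of Postn, measured 5621 and 6019 with I-BET151 and 5534 and 5546 with JQ1, against 4670 and 4814 in CTRL buds. Its 4 inhibitor arrays lay above both CTRL arrays, but neither change was called (0.29 and 0.22, adjusted p = 0.116 and 0.135).

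Sparcl1 and Sparc belong to the same family of secreted proteins. Sparcl1, which encodes the secreted SPARC-like protein hevin, measured 1564 and 1597 with I-BET151 and 1247 and 1232 with JQ1, against 2071 and 2108 in CTRL buds. It fell under JQ1 (-0.75 ± 0.05, adjusted p = 0.0154) and narrowly missed the threshold under I-BET151 (-0.40 ± 0.05, adjusted p = 0.0571). Sparc itself, a collagen-binding protein abundant in embryonic mesenchyme, measured 4422 and 4246 with I-BET151 and 4175 and 4101 with JQ1, against 4654 and 4223 in CTRL buds. The I-BET151 arrays of Sparc overlapped with the CTRL arrays, and its 95% interval ran from -0.22 to 0.16 under I-BET151 and from -0.29 to 0.09 under JQ1.

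Thbs1, which encodes thrombospondin 1, an inhibitor of vessel growth and activator of latent TGF-beta, measured 400 and 363 with I-BET151 and 382 and 393 with JQ1, against 559 and 598 in CTRL buds. Its ratio was alike under both, 1.52-fold lower with adjusted p = 0.0536 for I-BET151 and 1.49-fold lower with adjusted p = 0.0353 for JQ1, so that only the second was called. Thbs2, the gene of the related thrombospondin 2, measured 73 and 84 with I-BET151 and 63 and 66 with JQ1, against 106 and 120 in CTRL buds, and fell 1.75-fold under JQ1 (adjusted p = 0.0332). Fn1, which encodes fibronectin, the main adhesive protein of the interstitium, stayed within a narrow range. Its values were 1192 and 1164 with I-BET151 and 1348 and 1240 with JQ1, against 1273 and 1322 in CTRL buds, with intervals of -0.32 to 0.04 and -0.18 to 0.17. Spon1 and Npnt, for F-spondin and for the integrin ligand nephronectin, stayed uncalled, with log2 changes of 0.03 to 0.21.

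Decorin, biglycan and fibromodulin, all SLRPs, were lower under both inhibitors. Of 6 genes of this class, Dcn, Bgn and Fmod fell under I-BET151, and the same 3 and Ogn fell under JQ1. Dcn measured 117 and 136 with I-BET151 and 97 and 76 with JQ1, against 315 and 302 in CTRL buds. That is 2.45-fold lower (-1.29 ± 0.15, adjusted p = 0.0460) under I-BET151 and 3.59-fold lower (-1.84 ± 0.15, adjusted p = 0.0154) under JQ1. Bgn, for biglycan, a close relative of decorin, measured 822 and 826 with I-BET151 and 671 and 625 with JQ1, against 1692 and 1514 in CTRL buds. It fell 1.94-fold (adjusted p = 0.0421) and 2.47-fold (adjusted p = 0.0116), with every inhibitor array below every CTRL array.

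Fmod, which encodes fibromodulin, a regulator of collagen fibril assembly, measured 90 and 106 with I-BET151 and 89 and 82 with JQ1, against 188 and 177 in CTRL buds. It fell 1.87-fold and 2.14-fold (adjusted p = 0.0461 and 0.0204). Ogn, for osteoglycin, had dim values of 30 and 38 with I-BET151 and 30 and 23 with JQ1, against 73 and 75 in CTRL buds. It fell under JQ1 (-1.49 ± 0.17, adjusted p = 0.0278) and missed the threshold under I-BET151 at -1.13 ± 0.17 (adjusted p = 0.0713). Lum, for lumican, was near or under the lower quartile of each array. Its values were 13 and 13 with I-BET151 and 17 and 10 with JQ1, against 23 and 25 in CTRL buds, and its changes of -0.88 under each inhibitor were not called. Aspn, for asporin, measured 9 to 13 on all 6 arrays, below the lower quartile throughout.

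The hyaluronan matrix is built on hyaluronan chains made by synthases such as Has2, with versican (Vcan) attached to them by link proteins (Hapln1, Hapln3). Of these 4 genes only Hapln1 was called. It measured 19 and 20 with I-BET151 and 16 and 17 with JQ1, against 86 and 57 in CTRL buds. The CTRL arrays stood above all inhibitor arrays but far apart from each other. The inhibitor arrays lay at about the lower quartile of the array and are not shown to be above background, so the fitted log2 changes of -1.84 ± 0.20 under I-BET151 (adjusted p = 0.0449) and -2.09 ± 0.20 under JQ1 (adjusted p = 0.0208) are not exact folds. Vcan measured 926 and 910 with I-BET151 and 1000 and 759 with JQ1, against 766 and 941 in CTRL buds. The groups overlapped, and its sign under both inhibitors turned when CTRL 1 was left out, to -0.04 and -0.11 without that array, and under JQ1 also without JQ1 1, to -0.16. Has2 was at 402 and 435 with I-BET151 and 408 and 352 with JQ1, against 552 and 579 in CTRL buds, below both CTRL arrays throughout, and missed the threshold (adjusted p = 0.125 and 0.0529). Hapln3 was dim and not called, at 28 to 40 over all arrays.

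**Figure D2:**
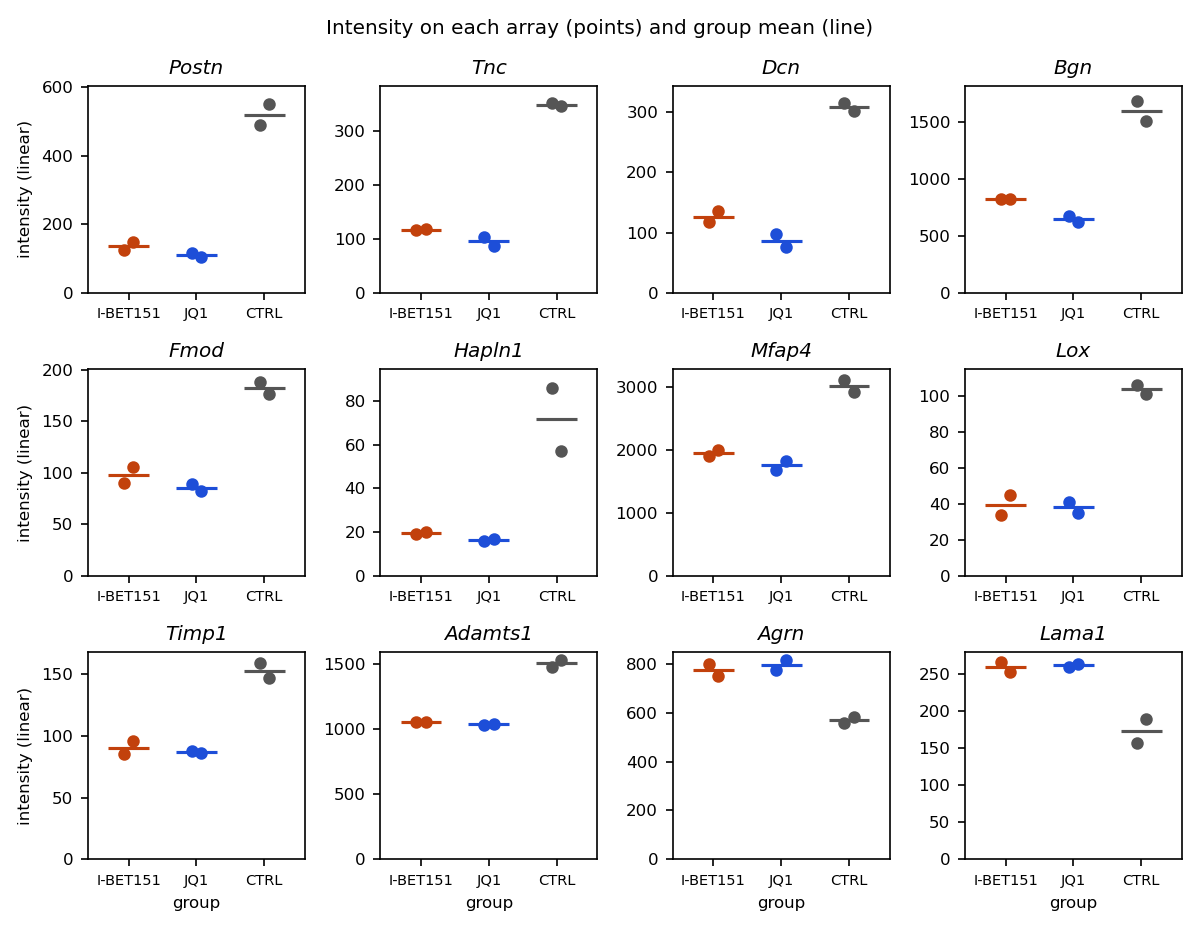
Intensity on a linear scale (vertical axis) is plotted for each array (points) in the I-BET151, JQ1 and CTRL groups, with the group mean as a line, for the 10 genes that fell under both inhibitors and for Agrn and Lama1. In the 10 genes that fell, both inhibitor groups lie below both CTRL points, and in Agrn and Lama1 they lie above them.

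Elastic fibres consist of elastin on a scaffold of fibrillin microfibrils with fibulins, EMILINs and microfibril-associated proteins. Of the 9 genes measured, only Mfap4 was called. Mfap4 binds elastin and tropoelastin, and it measured 1905 and 2006 with I-BET151 and 1691 and 1831 with JQ1, against 3116 and 2922 in CTRL buds. It fell 1.54-fold (-0.63 ± 0.07, adjusted p = 0.0479) and 1.71-fold (-0.78 ± 0.07, adjusted p = 0.0204). Eln, the elastin gene, measured 54 and 33 with I-BET151 and 41 and 54 with JQ1, against 87 and 82 in CTRL buds. All 4 inhibitor arrays of Eln were lower, but the replicates were far apart, and neither change was called (95% intervals of -1.71 to -0.30 and -1.55 to -0.14, adjusted p = 0.163 and 0.174). Fbln5, whose product fibulin-5 tethers elastin to microfibrils, measured 94 and 88 with I-BET151 and 106 and 97 with JQ1, against 164 and 139 in CTRL buds, and also missed the threshold (adjusted p = 0.0655 and 0.0631). The other 6 genes, Fbn2, Fbln1, Fbln2, Emilin1, Mfap2 and Mfap5, had log2 changes of -0.22 to 0.28, none of them called.

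Among 10 basement membrane genes, 1 was called. None fell by limma, although Lama4 was lower under both at an unadjusted p under 0.05. Agrn rose under JQ1, and the median log2 change was 0.24 under I-BET151 and 0.20 under JQ1. Agrn, the gene of the heparan sulfate proteoglycan agrin, measured 801 and 750 with I-BET151 and 778 and 817 with JQ1, against 558 and 585 in CTRL buds. It was 1.36-fold higher under I-BET151, not called (adjusted p = 0.0723), and rose 1.40-fold under JQ1 (log2 change 0.48 ± 0.07, adjusted p = 0.0396). Lama1, for the laminin alpha 1 chain of embryonic epithelial basement membranes, measured 266 and 252 with I-BET151 and 260 and 264 with JQ1, against 157 and 189 in CTRL buds. The inhibitor arrays of Lama1 stood clear of the CTRL arrays, with log2 changes of 0.59 ± 0.10 and 0.60 ± 0.10, and neither change was called (adjusted p = 0.0884 and 0.0557).

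Lama5, for the alpha 5 chain of later epithelial basement membranes, was at 230 and 211 with I-BET151 and 218 and 254 with JQ1, against 143 and 180 in CTRL buds, and was not called. Lamc1, for the gamma 1 chain that most laminin trimers contain, measured 987 and 1076 with I-BET151 and 1062 and 1031 with JQ1, against 828 and 922 in CTRL buds. Its partner Lamb1 showed nearly the same ratios, 1.16-fold and 1.17-fold higher beside 1.18-fold and 1.20-fold for Lamc1, and no change of either gene was called. Lama4, the alpha chain found in vessel walls, was, among the 6 laminin genes of the list, the one with negative values under both inhibitors. It measured 183 and 241 with I-BET151 and 187 and 160 with JQ1, against 270 and 311 in CTRL buds (adjusted p = 0.251 and 0.0938). Hspg2, the perlecan gene, measured 558 and 454 with I-BET151 and 426 and 440 with JQ1, against 374 and 485 in CTRL buds, so that the groups overlapped, and its JQ1 value turned to -0.16 without CTRL 1. Nid1, Nid2 and Lama2, for both nidogens and the laminin alpha 2 chain of muscle, had log2 changes of -0.08 to 0.26. Both I-BET151 arrays lay above both CTRL arrays in 7 of the 10 basement membrane genes and both JQ1 arrays in 6, against 21.5% and 23.9% of all genes measured.

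Of 3 lysyl oxidase genes, Lox fell under both inhibitors. Its product starts the cross-linking of collagen and elastin, and it measured 34 and 45 with I-BET151 and 41 and 35 with JQ1, against 106 and 101 in CTRL buds. The fall was 2.65-fold (adjusted p = 0.0461) and 2.73-fold (adjusted p = 0.0251). Loxl1, whose product acts on elastin, measured 627 and 589 with I-BET151 and 529 and 573 with JQ1, against 866 and 815 in CTRL buds, and fell 1.53-fold under JQ1 (adjusted p = 0.0313). The I-BET151 value of Loxl1 was 1.38-fold lower and not called (adjusted p = 0.0768). Loxl2 was at 187 and 226 with I-BET151 and 189 and 212 with JQ1, against 224 and 209 in CTRL buds, with no call.

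Among 6 proteases and protease inhibitors, Timp1 and Adamts1 fell under both inhibitors and Mmp2 under JQ1. Timp1, an inhibitor of metalloproteinases, measured 85 and 96 with I-BET151 and 88 and 86 with JQ1, against 159 and 147 in CTRL buds. It was 1.69-fold (adjusted p = 0.0460) and 1.76-fold (adjusted p = 0.0238) lower. Adamts1, a protease that cleaves versican and other proteoglycans, had close replicates, with 1059 and 1054 with I-BET151 and 1035 and 1041 with JQ1, against 1481 and 1532 in CTRL buds. Its fall was 1.43-fold (-0.51 ± 0.05, adjusted p = 0.0449) and 1.45-fold (-0.54 ± 0.05, adjusted p = 0.0219). Mmp2, the gelatinase A gene, measured 1151 and 1072 with I-BET151 and 960 and 874 with JQ1, against 1316 and 1325 in CTRL buds. It fell 1.44-fold under JQ1 (adjusted p = 0.0403) and was 1.19-fold lower under I-BET151, not called (adjusted p = 0.192).

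The remaining inhibitors and the activator of Mmp2 were not called. Timp2, whose product both inhibits metalloproteinases and takes part in Mmp2 activation, measured 1200 and 1207 with I-BET151 and 1138 and 1198 with JQ1, against 1247 and 1225 in CTRL buds, with intervals of -0.19 to 0.11 and -0.23 to 0.07. Timp3 and Mmp14, the membrane-bound activator of Mmp2, had log2 changes of -0.36 to 0.09 and were not called. Gpc3, a glypican that carries heparan sulfate on the cell surface, measured 4574 and 4553 with I-BET151 and 4546 and 4562 with JQ1, against 4242 and 4002 in CTRL buds. All 4 inhibitor arrays of Gpc3 were higher, with log2 changes of 0.15 and 0.14, and neither change was called (adjusted p = 0.281 and 0.254).

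**Figure D3:**
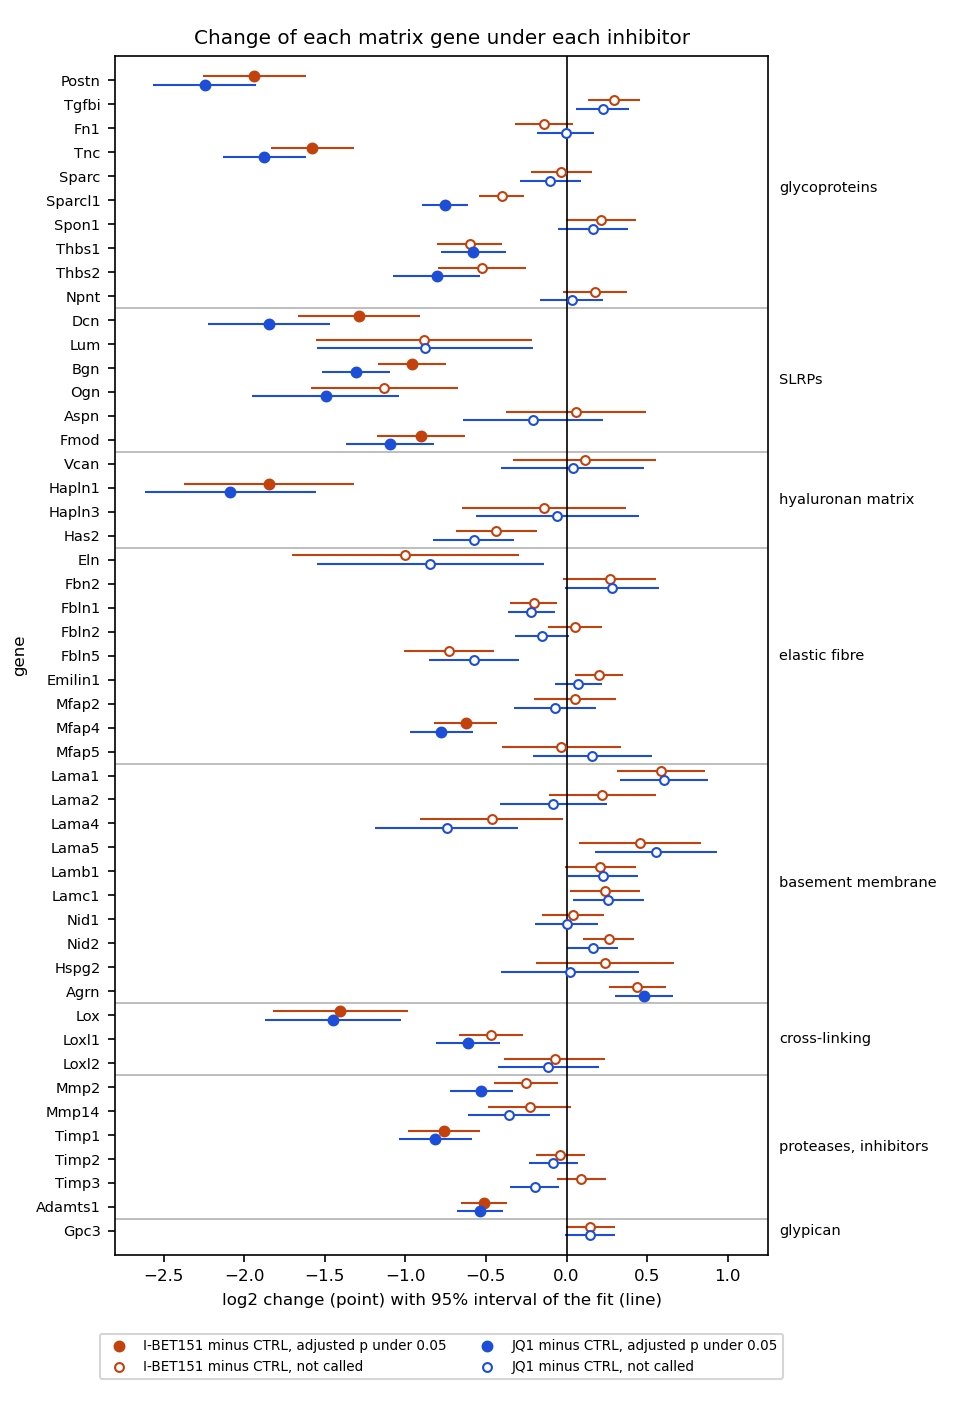
The log2 change of each matrix gene (horizontal axis) is plotted for I-BET151 minus CTRL and JQ1 minus CTRL, with the 95% interval of the fit for that gene alone as a line and filled points at an adjusted p under 0.05. The filled points lie left of 0 except for Agrn under JQ1, and the basement membrane block lies mostly right of 0.

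Direct comparison of JQ1 at 100 nM with I-BET151 at 500 nM called no gene, neither among the 49 nor among the 24010 (0% called). At an unadjusted p under 0.05 there were 8 matrix genes and 1610 genes in all (6.71%), and with a trended, robust prior limma called 6 genes, none of them in the matrix list. The doses differ, so the values describe these exposures and not the potency of the compounds. All 8 matrix genes were lower under JQ1, where 3.38% of all genes were lower and 3.33% higher. A difference that misses the threshold does not show that the compounds act alike. Dcn differed most, at 97 and 76 under JQ1 against 117 and 136 under I-BET151, a log2 difference of -0.55 with a 95% interval of -0.93 to -0.18 (adjusted p = 0.718). Sparcl1 had the narrowest interval among the genes that fell, at 1247 and 1232 under JQ1 against 1564 and 1597 under I-BET151, a difference of -0.35 (-0.49 to -0.21, adjusted p = 0.718). For Postn the difference was -0.31 (-0.63 to 0.01), for Lox -0.05 (-0.47 to 0.37) and for Adamts1 -0.03 (-0.17 to 0.12). Both JQ1 arrays lay below both I-BET151 arrays in 23 of the 49 genes and above them in 2, against 13.9% and 14.6% of all genes.

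Several matrix genes lie next to one another on a chromosome, and their values are given side by side. In the RefSeq order of protein-coding genes, Dcn is followed by Lum, Kera and Epyc on chromosome 10. Lum, the direct neighbour of Dcn, was lower on all 4 inhibitor arrays as given above, at -0.88 under each inhibitor, and was not called. Kera and Epyc, for the SLRPs keratocan and epiphycan, were dim and lay between 14 and 26 on all 6 arrays. On chromosome 13, Ecm2, Aspn, Omd and Ogn follow each other, and Ecm2, Aspn and Omd measured 7 to 14 on all arrays, below the lower quartile, where a change could not be read.

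On chromosome 1, Fmod lies beside Prelp, the gene of the SLRP prolargin, which measured 67 and 62 with I-BET151 and 54 and 48 with JQ1, against 64 and 72 in CTRL buds (adjusted p = 0.744 and 0.104). Hapln1 lies between Edil3, for an integrin-binding glycoprotein, and Vcan on chromosome 13. Edil3 measured 63 and 66 with I-BET151 and 67 and 51 with JQ1, against 86 and 78 in CTRL buds, lower on all 4 inhibitor arrays and not called (adjusted p = 0.305 and 0.156), whereas the groups overlapped in Vcan. Adamts1 neighbours Adamts5 on chromosome 16, the gene of a further proteoglycan-cleaving protease. Adamts5 measured 39 and 33 with I-BET151 and 49 and 31 with JQ1, against 75 and 68 in CTRL buds, and its log2 changes of -0.99 and -0.87 were not called (adjusted p = 0.136 and 0.128). Whether neighbours differed in their change was not tested.

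**Figure D4:**
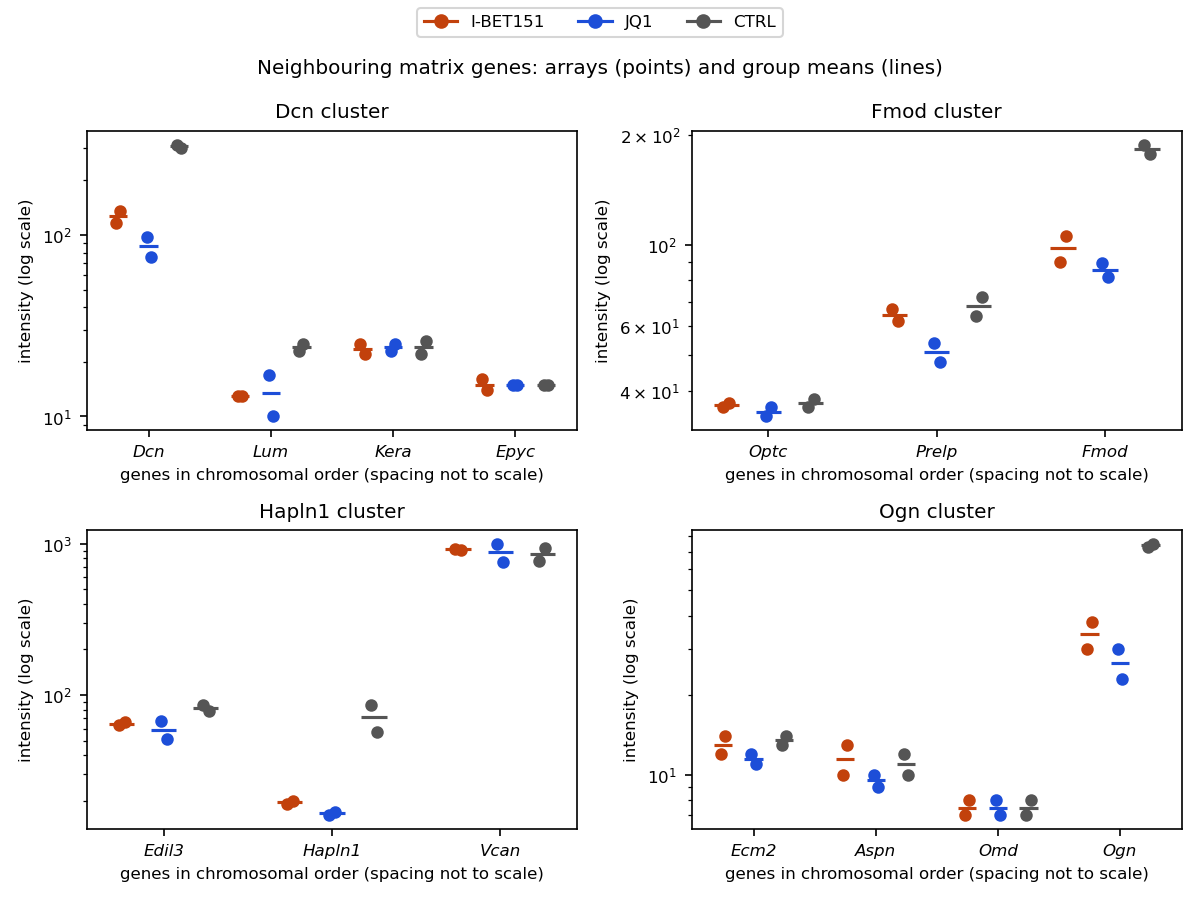
Intensity on a log scale (vertical axis) is plotted for each array (points) with group means (lines) in I-BET151, JQ1 and CTRL buds, for 4 runs of neighbouring matrix genes in chromosomal order. Values are to be compared within a gene: in Dcn, Lum, Fmod, Hapln1, Edil3 and Ogn all inhibitor points lie below both CTRL points, whereas in Kera, Epyc, Omd and Vcan they overlap.

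Beyond the 49 genes, 136 further genes of the same matrix classes and their receptors were examined. Of these, 6 fell under I-BET151 and the other 130 were not called, against 0.87% of all genes falling and 0.262% rising. Under JQ1, 11 fell and 2 rose, against 2.67% of all genes falling and 1.13% rising. The median log2 change was -0.07 and -0.08. The 6 that fell under both were Mmrn1, Spon2, Thbs3, Loxl3, Mmp9 and Pcolce. Loxl3, a further lysyl oxidase, measured 238 and 230 with I-BET151 and 191 and 200 with JQ1, against 366 and 356 in CTRL buds (adjusted p = 0.0432 and 0.0146). Mmp9, the gelatinase B gene, measured 68 and 62 with I-BET151 and 53 and 60 with JQ1, against 122 and 123 in CTRL buds (adjusted p = 0.0432 and 0.0154). The procollagen protease enhancer gene Pcolce fell 1.61-fold (adjusted p = 0.0461) and 1.79-fold (adjusted p = 0.0200).

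Mmrn1, an EMILIN-family gene of endothelium and platelets, fell 2.04-fold (adjusted p = 0.0432) and 2.01-fold (adjusted p = 0.0208). Spon2 fell 1.81-fold and 1.88-fold, and Thbs3 1.82-fold and 1.71-fold. Called under JQ1 alone, Ntn4, a laminin-related netrin of basement membranes, fell 2.13-fold (adjusted p = 0.0323), Sulf2, an enzyme that trims heparan sulfate, 1.42-fold (adjusted p = 0.0472), and the syndecan gene Sdc3 1.43-fold (adjusted p = 0.0358). Their log2 changes under I-BET151 were -0.52, -0.39 and -0.30, none of them called. Among 20 receptors, Itga2, a collagen-binding integrin subunit, fell 2.16-fold under JQ1, with 151 and 128 against 292 and 309 in CTRL buds (adjusted p = 0.0193). The laminin-binding subunits split, with Itga6 1.38-fold lower (adjusted p = 0.0482) and Itga3 1.42-fold higher (adjusted p = 0.0392) under JQ1. The other rise was Cemip2, a cell-surface hyaluronidase, 1.36-fold under JQ1 (adjusted p = 0.0491). Under I-BET151, the log2 changes of Itga2, Itga6, Itga3 and Cemip2 were -0.57, -0.38, 0.44 and 0.34, none of them called. For none of the genes called under JQ1 alone was the difference between the inhibitors called. No gene was called among 9 further SLRPs under either inhibitor, and 1 of the 9 lay below both CTRL arrays with both I-BET151 arrays and 5 with both JQ1 arrays, against 20.7% and 21% of all genes. Among them, Omd, Ecm2 and Epyc measured 7 to 16 over all arrays, under the lower quartile, where a fall could not be read. Kera was dim too, at 22 to 26.

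Markers of the cell types in the bud were read beside these falls. Among the epithelial markers, Pdx1 lay between 228 and 330 and Sox9 between 1418 and 1650 over all arrays. In contrast, Epcam, Krt8 and Krt18 were lower on all 4 inhibitor arrays than on both CTRL arrays. Ptf1a, the dimmest of that list, lay between 53 and 69, near the array medians of 54 to 57. The dimmest marker of the 6 lists was Tbx5 at 14 to 18. Of 21 mesenchyme markers, none was called under I-BET151 and Prrx1 and Meox1 fell under JQ1, with median log2 changes of -0.14 and -0.13, and log2 changes ran from -0.85 to 0.29 and from -1.15 to 0.29. Both arrays lay below both CTRL arrays in 11 of the 21 under I-BET151 and in 12 under JQ1, and above them in 3 and 2. Of all genes, 20.7% and 21% lay below and 21.5% and 23.9% above. The summed intensity of the 21 markers was 21726 and 21907 with I-BET151 and 22109 and 22055 with JQ1, against 23663 and 23541 in CTRL buds. Pdgfra, a receptor of mesenchymal cells, measured 1624 and 1809 with I-BET151 and 1816 and 1553 with JQ1, against 2293 and 2359 in CTRL buds, lower on all 4 inhibitor arrays and not called (adjusted p = 0.133 and 0.0867). Gas1 went the other way, at 870 and 797 with I-BET151 and 837 and 832 with JQ1, against 677 and 704, and was not called. Prrx1, a limb and organ mesenchyme factor, measured 82 and 91 with I-BET151 and 76 and 65 with JQ1, against 139 and 175 in CTRL buds (adjusted p = 0.0861 and 0.0332).

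Endothelial markers were lower. Under I-BET151, Tek and Eng were the 2 of 14 that fell, and 5 fell under JQ1, against 0.87% and 2.67% of all genes. All 14 log2 changes were negative under each inhibitor, with medians of -0.30 and -0.43 against 0.003 and 0.016 over all genes. Both arrays lay below both CTRL arrays in 13 of the 14 under each, against 20.7% and 21% of all genes. The sum was 5276 and 5694 with I-BET151 and 5016 and 5111 with JQ1, against 7120 and 7314 in CTRL buds. Of 7 neural crest and glial markers, Ednrb fell with each inhibitor, Fabp7 fell with JQ1 alone, and the other 5 were not called. The sum of the 7 was 934 and 1097 with I-BET151 and 876 and 994 with JQ1, against 1895 and 1955 in CTRL buds. Fabp7 made up most of that gap, with 191 and 317 under I-BET151, 154 and 185 under JQ1, and 795 and 829 in CTRL buds. On the log2 scale, Sox10 was at -0.23 and -0.09 and Foxd3 at -0.09 and -0.15. Erbb3 was at -0.47 and -0.36 and Tubb3, which was dim, at -0.73 and -0.41. All 7 log2 changes were negative under each inhibitor, with medians of -0.47 and -0.36. Both arrays lay below both CTRL arrays in 6 of the 7 under each, against 20.7% and 21% of all genes. A sum over probe sets weights bright genes most. Of the 12 epithelial markers, Krt18 fell under JQ1, and the sum was 9199 and 8818 with I-BET151 and 8227 and 8791 with JQ1, against 8905 and 9278 in CTRL buds. Both arrays lay below both CTRL arrays in 4 of these 12 under each inhibitor, and above them in 1. Of the 7 mesothelial markers, Upk3b fell under JQ1, and their sum was 2421 and 2512 with I-BET151 and 2307 and 2086 with JQ1, against 2438 and 2378. Both arrays lay above both CTRL arrays in 3 of the 7 under I-BET151 and in 2 under JQ1, and below them in 1 and 3. Wt1 was higher, at 1227 and 1216 with I-BET151 and 1229 and 1112 with JQ1, against 919 and 911, and was not called. Fcgr1 fell under both inhibitors among 10 macrophage markers, whose sum was 5188 and 4941 with I-BET151 and 4746 and 5039 with JQ1, against 4792 and 5161 in CTRL buds. Both arrays lay above both CTRL arrays in 3 of these 10 under I-BET151 and in 4 under JQ1, and below them in 4 and 5. C1qb was higher, at 1456 and 1490 with I-BET151 and 1514 and 1608 with JQ1, against 1247 and 1196, and was not called. Of all genes, 21.5% and 23.9% lay above both CTRL arrays and 20.7% and 21% below. The part of these cell types in the matrix changes was not tested.

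**Figure D5:**
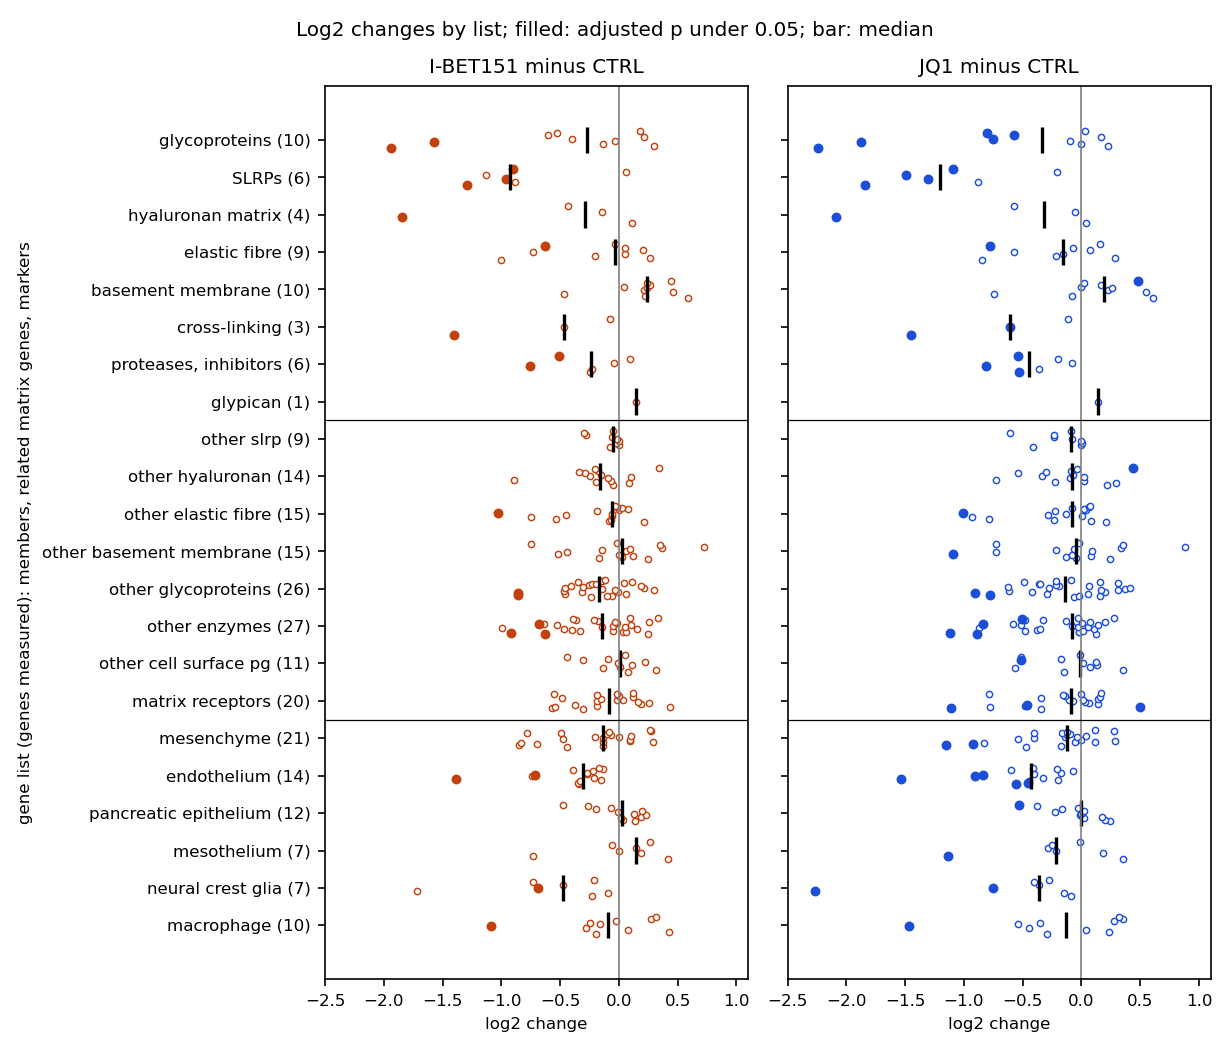
Log2 changes of single genes (points, filled at an adjusted p under 0.05) and list medians (bars) are plotted for I-BET151 minus CTRL on the left and JQ1 minus CTRL on the right, by role for the 49 genes, then for related matrix genes and for cell type markers. The SLRP median lies farthest left among the 8 roles, at -0.93 and -1.20, while the basement membrane median lies right of 0.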

How the data were processed

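Affymetrix whole-transcript arrays of 6 pools of mouse pancreatic buds, 2 per group, were analysed. The authors deposited intensities on a linear scale, normalized with RMA (no version given) per the submitters' processing notes, as whole numbers. No source used here says how probes were combined per gene or when values were rounded. RMA equalizes the arrays, so a shift shared by most genes would not be seen. There are no detection calls, and with 2 arrays a group the number of arrays limits the precision.

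Of 24972 rows, 24014 had 1 gene symbol in the platform's probe annotation, none had several and 958 were unnamed here. Symbols were updated by Entrez ID through a RefSeq table of GRCm38.p6 (23921 matched), and the brighter row was kept for 4 repeated symbols. From these, log2(intensity) was fitted with limma 3.58.1 in R 4.3.3 (lmFit, eBayes) to all 6 arrays with group as the only term, 3 residual and 1.76 prior degrees of freedom. P-values were adjusted by Benjamini-Hochberg over 24010 genes. Exact permutation of 2 against 2 arrays cannot go below p = 0.333, so none was run. The fit was also run on simulated data, with changes planted only in brighter genes and larger than many of those called here. That run does not bear on the smaller changes.

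The matrix genes and all lists were chosen with earlier results of these data known, so no list carries a test of its own. Values on every array are given for the listed matrix genes called against CTRL and for a fixed set of other listed genes. Many called related genes are given by fold only, and several called markers by name only. Tgfbi, Lum, Has2, Fbln5, Lama4, Lama5, Loxl2 and the single markers were added after their values were seen. Of each related list, up to 4 called genes are named, and other related genes that neighbour a matrix gene were named after their values were seen. Same-numbered arrays of different groups deviated with correlations of -0.02 to -0.04, so the replicate numbers were not taken as pairs. Alternatives were a filter on dim genes, a pseudocount, median centring, a trended robust prior, a replicate block, only the 2 groups compared, and each array left out.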

Additional observations from a re-analysis of the deposited data

How the results depend on the processing

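The 27 calls among the matrix genes were recomputed under every alternative that kept the gene, giving 465 values, of which 0 changed direction. This outcome was fixed by the design of the alternatives. Most of them leave a log2 change as it was. For each call both inhibitor arrays lay on the same side of both CTRL arrays, so leaving out 1 array could not turn it. The count therefore lends the calls no support. The number of calls moved. Leaving out genes below the median mean called 19 matrix genes and 1438 genes in all under I-BET151, and 2373 in all under JQ1. With log2(value + 16), 16 matrix genes and 661 genes in all passed under I-BET151, and 20 and 1615 under JQ1. A trended, robust prior gave 26 and 1806 under I-BET151, 28 and 2617 under JQ1, and 6 genes in all between JQ1 and I-BET151. Centring each array on its median moved values by 0.052 and 0.065 and called 533 genes under I-BET151 and 1391 under JQ1, with 350 and 727 of these lower, against 209 of 272 and 640 of 912 as reported. The replicate block, whose numbers are not taken as pairs, and the fit to only the 2 groups compared each called 0 genes in every comparison. At an unadjusted p under 0.05 against CTRL, these fits had 28 or 29 of the 49 matrix genes. Of all 24010 genes, the block had 4054 under I-BET151 and 4709 under JQ1 at that threshold. The fit to only the 2 groups had 4316 and 5363. Leaving out 1 array gave 0 calls. With dim genes left out too, it gave 10 to 18 matrix genes and 395 to 1059 genes in all under I-BET151 (413 without CTRL 1, 768 without I-BET151 2), and 16 to 21 and 968 to 2221 under JQ1. The cause of these differences was not tested.

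Across the 49 matrix genes, 18 of 98 changes, in 14 genes, turned sign under some alternative, and none of these was called as reported or where it turned. With centring, Fn1 was at 0.060 and Hapln3 at 0.009 under JQ1, and Sparc and Mfap5 at 0.019 and Timp2 at 0.013 under I-BET151. Without 1 array, values under I-BET151 ran from -0.132 to 0.247 for Aspn, -0.003 to 0.109 for Fbln2, -0.397 to 0.117 for Hapln3, -0.210 to 0.063 for Loxl2, -0.066 to 0.167 for Mfap2, -0.095 to 0.031 for Mfap5, -0.017 to 0.099 for Nid1, -0.103 to 0.037 for Sparc and -0.036 to 0.261 for Vcan. Under JQ1 they ran from -0.065 to 0.055 for Fn1 (0.022 without CTRL 2), -0.173 to 0.061 for Hapln3, -0.164 to 0.211 for Hspg2, -0.221 to 0.059 for Lama2 (0.030 without JQ1 2), -0.031 to 0.353 for Mfap5, -0.058 to 0.058 for Nid1 (-0.057 without JQ1 2), -0.030 to 0.093 for Npnt (-0.006 without CTRL 2) and -0.162 to 0.236 for Vcan (-0.111 without CTRL 1). Genes that remained after dim genes were left out had the same values. Without detection calls, a dim gene is not shown to be above background.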
